A study of Mus musculus with 12 samples.

Results

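The chemokine genes Ccl21a and Ccl21c and the receptor gene Ccr7 were followed through the first hours after skin wounding in mice. They were found by matching the accession in each probe set's name to RefSeq, which gave 1 probe set for each of these 3 genes, of 909 named genes and 1246 probe sets in all. The genes were chosen by their log2 values over the wounding times in these same samples. Their levels and differences are therefore given as a description, with no test.

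Expression was measured with single-colour arrays in 12 samples, and the values are RMA values on a log2 scale, on which 1 unit is a doubling. The groups were non-wounded (4 samples) and, after wounding, 0 h (1 sample), 30 min (2 samples), 2 h (4 samples) and 4 h (1 sample). The sample titles carry the prefix B6 in every group. The labels name dendritic epidermal T cells, while the design text plans RNA of whole epidermis; neither gives the age of the mice or says whether animals were pooled. In the samples with replicate numbers 2 to 4, the summed log2 level of the 5 measured keratinocyte markers (of 10) was 40.1 to 40.3 at 2 h. It was 39.8 to 40.5 in the non-wounded samples of these numbers. In the samples numbered 1 it was 33.6 at 2 h and 36.9 without wounding. The sum of the 7 measured T cell markers was 27.7 to 30.0 and 27.5 to 28.9 in numbers 2 to 4, and 26.3 and 28.1 in number 1. Levels of different probe sets cannot be set against each other, so these sums do not show which cells the RNA came from. Of 14 T cell markers 7 were measured, and Cd3e, Cd3g, Cd3d, Trdc and Trgc1 are not analysed here.

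By their titles 5 samples, 1 per group, bear the replicate number 1, and these differed as a set from the 7 numbered 2 to 4. Their SD over probe sets was 1.55 to 1.85, against 2.19 to 2.30 in the others. The 0 h and 4 h groups consist of a sample numbered 1 only, so values are compared within a number wherever possible. The titles do not say that samples of equal number belong together, so a pair here is a match by number only. Among numbers 2 to 4 alone, the 2 h and non-wounded samples of equal number shared no clear deviation (r = -0.150, 0.0727 and -0.319 across probe sets). Batch is not given in the sources used here.

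CCL21 and CCL19 are the ligands of CCR7, a G protein-coupled receptor of mature dendritic cells and of naive and central memory T cells. CCL21 is made by lymphatic endothelium and by the stroma of lymph nodes, and it is held on heparan sulfate. It guides dendritic cells that bear CCR7 out of peripheral tissue. Langerhans cells that leave the epidermis for the lymph node use this receptor. The mouse genome holds several nearly identical copies of the Ccl21 gene: Ccl21a encodes the form with serine that lymph nodes make, and the other copies encode a form with leucine found in peripheral lymphatics.

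The similarity of the copies limits what the 2 ligand probe sets can tell apart, and it reaches into their regulatory sequence. The 250 bases before the start of Ccl21a and of the copy Ccl21d are shown from RefSeq for this reason (build GRCm38.p6, chr4:42773992-42774241 on the minus strand for Ccl21a and chr4:41903363-41903612 on the plus strand for Ccl21d). The capital marks the base that differs between them.
Ccl21a: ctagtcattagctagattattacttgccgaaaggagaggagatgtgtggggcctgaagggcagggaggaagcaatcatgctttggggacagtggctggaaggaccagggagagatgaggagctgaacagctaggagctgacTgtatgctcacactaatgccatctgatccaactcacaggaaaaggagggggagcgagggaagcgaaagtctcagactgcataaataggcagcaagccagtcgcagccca
Ccl21d: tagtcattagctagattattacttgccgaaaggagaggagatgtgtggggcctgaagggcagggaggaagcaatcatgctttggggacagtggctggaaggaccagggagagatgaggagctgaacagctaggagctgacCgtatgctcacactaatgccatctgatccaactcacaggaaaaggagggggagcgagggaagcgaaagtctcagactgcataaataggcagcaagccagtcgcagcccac

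Over the 249 bases that align, Ccl21a and Ccl21d differ at 1 base, T142C, counted from 1 at the 5′ end of the Ccl21a window. The copies Gm13304 and Gm10591 differ from Ccl21a at T142C and at T144C. Of the 3 genes, the promoter table matched 1, Ccl21a. Neither printed window held, on either strand, a TATA box core (TATAAA, in 12.4% of all promoter windows of this length), an AP-1 type motif (TGANTCA, in 6.75%), an NF-kB type motif (GGG and CC with 5 bases between them, in 45.8%) or an interferon response type motif (GAAA repeated with 2 bases between, in 2.98%). Only these strings were searched. Both windows hold CATAAATA near the start of the gene, which the search for TATAAA does not count, so a variant TATA box was not tested for. Both ligand probe sets carry the suffix _s_at, which the array maker gives to probe sets that match several transcripts, so a signal of 1 copy may appear in both. No probe set was named Ccl19, Ccl21b or Ccl21d.

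**Figure D1:**
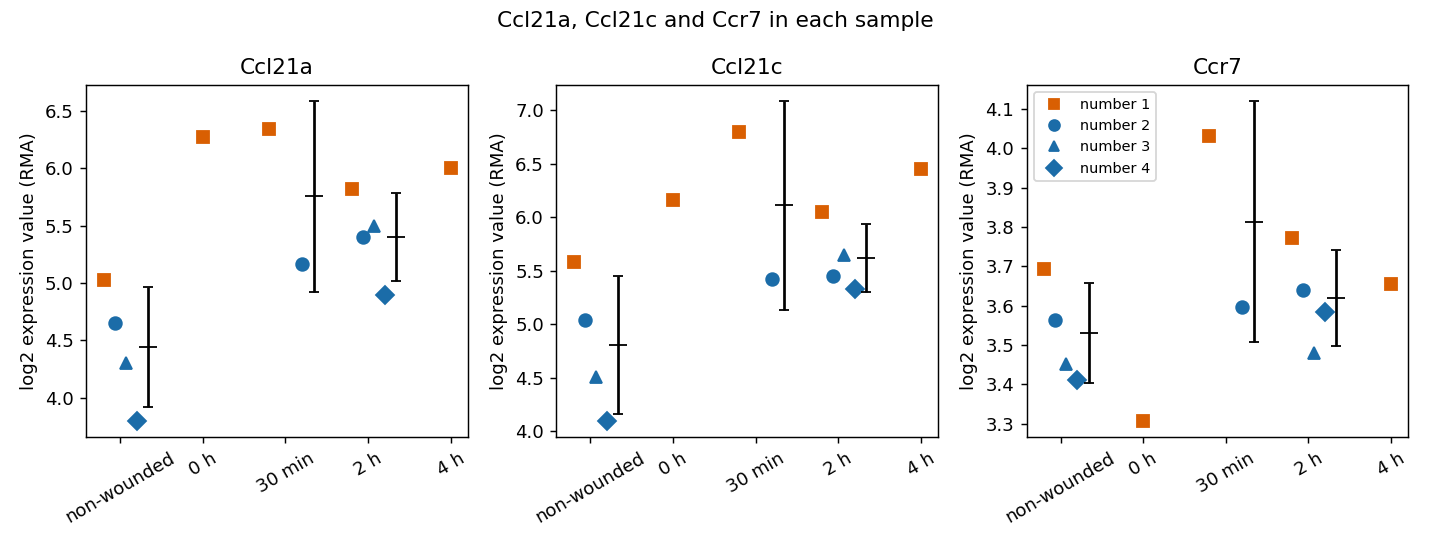
Log2 expression values (y axis) of Ccl21a, Ccl21c and Ccr7 in the 12 samples by group (x axis), with orange squares for samples numbered 1, blue symbols for numbers 2 to 4, and a black bar for the mean ± SD of groups with over 1 sample. Both ligand probe sets lie lowest in the non-wounded group by mean, at 4.44 and 4.81, while the Ccr7 values all lie between 3.31 and 4.03.

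Ccl21a encodes the serine form of the ligand. In order of samples 1 to 4 its log2 values were 5.82, 5.40, 5.49 and 4.90 at 2 h, against 5.02, 4.65, 4.30 and 3.80 in the non-wounded samples. The groups overlapped, because the lowest 2 h sample lay below the highest non-wounded sample. The means were 5.40 ± 0.38 at 2 h and 4.44 ± 0.52 in non-wounded samples (SD, n = 4 each), a difference of 0.96 ± 0.34 (SE of the limma fit), or 1.94-fold. Within the numbers the 2 h sample was higher in each pair, by 0.80, 0.75, 1.19 and 1.10 for numbers 1 to 4. A difference above 0 in all 4 pairs was seen for 13.4% of all probe sets, and for Ccl21a, Ccl21c and Ccr7.

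Ccl21c is a leucine-form copy of the same ligand. Its values were 6.05, 5.45, 5.65 and 5.33 at 2 h, against 5.58, 5.04, 4.51 and 4.10 in the non-wounded samples. Again the groups overlapped, through the non-wounded sample numbered 1. The means were 5.62 ± 0.32 at 2 h and 4.81 ± 0.64 in non-wounded samples (SD, n = 4 each), with a difference of 0.81 ± 0.38 (SE), or 1.76-fold. Within the numbers the differences for Ccl21c were 0.47, 0.41, 1.14 and 1.23. They were larger for numbers 3 and 4, whose non-wounded values, 4.51 and 4.10, were the lowest.

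The difference of Ccr7, the receptor, was smaller than its error. Its values were 3.77, 3.64, 3.48 and 3.58 at 2 h, against 3.69, 3.56, 3.45 and 3.41 in the non-wounded samples. The ranges of the groups overlapped over most of their width. The means were 3.62 ± 0.12 at 2 h and 3.53 ± 0.13 in non-wounded samples (SD, n = 4 each), a difference of 0.089 ± 0.16 (SE). The Ccr7 differences within the numbers, 0.079, 0.076, 0.027 and 0.17, were all above 0. Once samples were scaled to a common median and SD (the common scale), they became -0.03, 0.05, -0.06 and -0.05. On that scale the median difference of means over all probe sets was -0.064, and that of Ccr7, -0.022, stood above 58.6% of them. RMA values carry no detection call, so whether Ccr7 was above background in these samples cannot be read from them.

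Every 2 h sample above every non-wounded sample was seen for 2.01% of all probe sets, and for none of Ccl21a, Ccl21c and Ccr7. In the limma fit across all 1246 probe sets, 0.241% were called higher at 2 h, and again none of the 3 was. With the replicate number as a block, 1.12% were called higher and Ccl21a was among them, while Ccl21c and Ccr7 were not; nothing is read from this call, since it was among the values behind the choice of the gene. The ligand differences stood above those of 98.2% (Ccl21a) and 97.7% (Ccl21c) of all probe sets, and the Ccr7 difference above 61.5%. The median over all probe sets was 0.025.

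The scatter among non-wounded samples differed between ligand and receptor. The non-wounded SD was 0.52 for Ccl21a and 0.64 for Ccl21c, against a median of 0.29 over all probe sets, and 0.13 for Ccr7. At 2 h the SDs were 0.38, 0.32 and 0.12, beside a median of 0.33. The ligand signal therefore varied more than that of most probe sets before wounding and about as much as the typical probe set at 2 h.

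**Figure D2:**
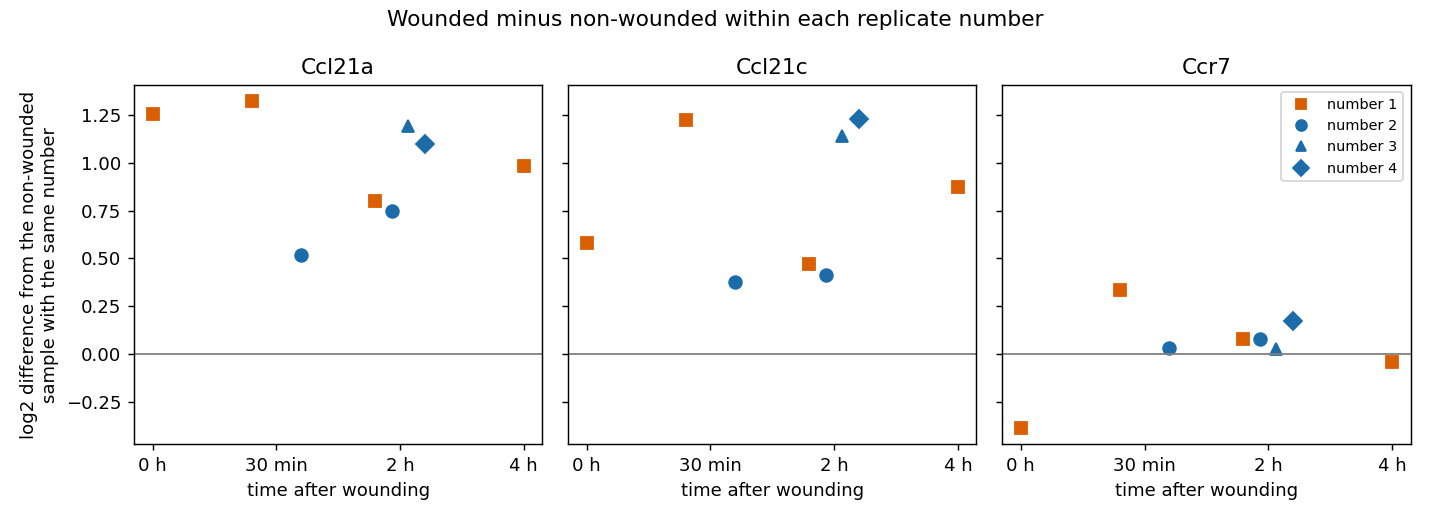
Log2 difference (y axis) between each wounded sample and the non-wounded sample with the same number, by time after wounding (x axis), for Ccl21a, Ccl21c and Ccr7; orange squares are number 1 and blue symbols numbers 2 to 4. All 8 differences are above 0 for Ccl21a (0.52 to 1.32) and for Ccl21c (0.38 to 1.23), and those of Ccr7 lie on either side of 0. Differences of the same number subtract the same non-wounded sample, so the 8 are not independent. How many of all probe sets have all 8 above 0 was not counted.

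At 30 min the ligand was already higher. The Ccl21a values were 6.34 and 5.17 at 30 min (numbers 1 and 2), against 3.80 to 5.02 in the 4 non-wounded samples. The groups did not overlap, as was the case, in the higher direction, for 2.49% of all probe sets. The difference of means was 1.31 ± 0.42 (SE), or 2.48-fold. Within the numbers it was 1.32 for number 1 and 0.52 for number 2, and 23.8% of all probe sets were higher in both pairs.

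Ccl21c had values of 6.80 and 5.42 at 30 min, against 4.10 to 5.58 in the non-wounded samples. The lower 30 min sample lay within the non-wounded range, so these groups overlapped. The difference of means was 1.31 ± 0.47 (SE), or 2.47-fold, with 1.22 within number 1 and 0.38 within number 2. Most of this size came from the sample numbered 1: with that 30 min sample left out the difference was 0.73 for Ccl21a and 0.61 for Ccl21c, and with the other left out it was 1.90 and 2.00. With the replicate number as a block the differences were 1.01 and 0.99. The limma fit called no probe set at 30 min with or without the block, while 63 and 136 had an unadjusted p under 0.05.

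Ccr7 had values of 4.03 and 3.60 at 30 min, against 3.41 to 3.69 in the non-wounded samples. The sample numbered 1 lay above the non-wounded range and the other inside it. The difference of means was 0.28 ± 0.19 (SE), with 0.34 within number 1 and 0.03 within number 2. Without the 30 min sample numbered 1 it was 0.067.

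Set directly against 30 min, the 2 h ligand values did not move in a common direction. The 2 h minus 30 min difference of Ccl21a was -0.52 within number 1 and 0.23 within number 2, and that of Ccl21c was -0.75 and 0.03. For Ccr7 it was -0.26 and 0.04. The differences of means, -0.35 ± 0.42 for Ccl21a, -0.49 ± 0.47 for Ccl21c and -0.19 ± 0.19 for Ccr7 (SE), were each about as large as their error or smaller.

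The samples at 0 h and 4 h have no replicate and were set against the non-wounded sample of the same number. In the 5 samples numbered 1, Ccl21a stood at 5.02 without wounding, and the wounded samples had 6.28 (0 h), 6.34 (30 min), 5.82 (2 h) and 6.01 (4 h). For Ccl21c the same series read 5.58, 6.16, 6.80, 6.05 and 6.45. The non-wounded sample was the lowest of the 5 for both ligand probe sets. That order rests on 1 non-wounded sample, and how many of all probe sets share it was not counted. The sample taken at 0 h, at the time of wounding by its label, was already 1.25 higher for Ccl21a and 0.58 for Ccl21c. Ccr7 showed no such order, with 3.69 without wounding and then 3.31 (0 h), 4.03 (30 min), 3.77 (2 h) and 3.65 (4 h).

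By group mean the levels of Ccl21a rank from non-wounded (4.44) through 2 h (5.40), 30 min (5.76) and 4 h (6.01) to 0 h (6.28). The neighbours from 2 h upward lie closer than the SD of the 30 min group (0.83), and the 0 h and 4 h means come from samples numbered 1 only. For Ccl21c the order was non-wounded (4.81), 2 h (5.62), 30 min (6.11), 0 h (6.16) and 4 h (6.45), with an SD of 0.98 at 30 min. For Ccr7 it was 0 h (3.31), non-wounded (3.53), 2 h (3.62), 4 h (3.65) and 30 min (3.81), and the last 4 of these lie within the SD of the 30 min group, 0.31. The 0 h sample lay above every non-wounded sample for both ligands, as it did for 29.5% of all probe sets, and the 4 h sample did so too, as it did for 38.8%. With samples scaled to a common median and SD both ligands kept this place at both times, beside 21.1% of all probe sets at 0 h and 26% at 4 h.

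The ligand probe sets followed each other closely. Over the 12 samples, with the mean of the samples numbered 1 and of the samples numbered 2 to 4 subtracted, Pearson's r between Ccl21a and Ccl21c was 0.94; it was 0.97 without that step and 0.978 in the 7 samples numbered 2 to 4, where Chst8, a sulfotransferase gene named after its values were seen, was closer to Ccl21c (0.985). Both carry the suffix _s_at, so part of this likeness may be shared signal, which was not tested. The sequences of these 2 probe sets were not compared. Between Ccr7 and Ccl21a r was 0.20 with the set means subtracted, 0.44 without that step and 0.68 in the samples numbered 2 to 4. Between Ccr7 and Ccl21c it was 0.44, 0.59 and 0.72 in the same order.

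Among 906 other named genes, those closest to Ccl21a by this measure were Dcn, the dermal proteoglycan decorin (r = 0.83), Nog, the BMP antagonist noggin (0.83), Siglec15 (0.79), the interferon gene Ifnl3 (0.78) and Cntfr, a cytokine receptor subunit (0.77). In the samples numbered 2 to 4 alone r was 0.93 for Dcn and 0.88 for Nog, but over the 12 uncentred samples it was 0.06 and 0.33. Those closest to Ccl21c were Cntfr (0.90), the N-glycan branching enzyme Mgat5 (0.89), Ifnl3 (0.86), Siglec15 (0.86) and Fgf6 (0.83). Those closest to Ccr7 were Reg1 (0.95), the sialyltransferase St3gal3 (0.93), Ifnb1 (0.92), Spock2 (0.90) and Clec4g (0.88), and their r in the samples numbered 2 to 4 was 0.71 to 0.80. All samples share the 2 sets and the 5 groups, so these are descriptions of likeness only.

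**Figure D3:**
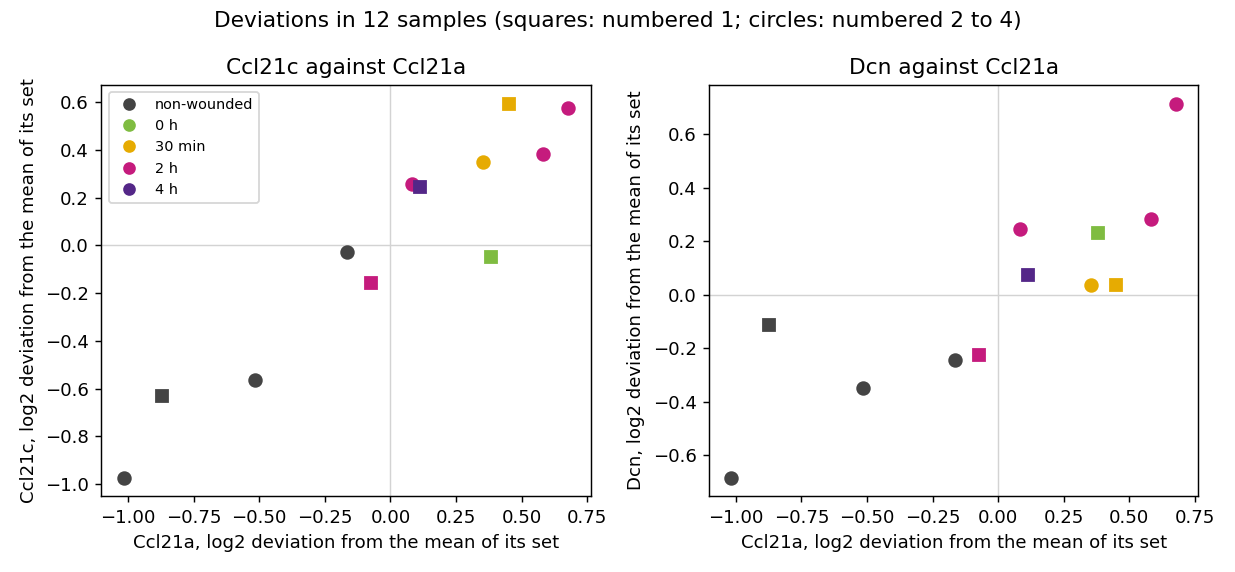
Deviation of the log2 value from the mean of its set (samples numbered 1 as squares, samples numbered 2 to 4 as circles) for Ccl21c and for Dcn (y axes) against Ccl21a (x axes), coloured by group. Ccl21c follows Ccl21a closely (r = 0.94), and Dcn follows it more loosely (r = 0.83).

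Dcn is also a marker of fibroblasts. It had values of 4.27, 5.29, 5.72 and 5.25 at 2 h, against 4.38, 4.76, 4.65 and 4.32 in the non-wounded samples. It was higher at 2 h within numbers 2, 3 and 4, by 0.53, 1.06 and 0.93, and stood at -0.11 within number 1, where Ccl21a was 0.80 higher. Of 8 fibroblast markers 7 were measured, and 6 of these had a 2 h difference above 0, with a median of 0.16. Over all probe sets it was 54.5% and a median of 0.025. On the common scale 5 of 7 were above 0, with a median of 0.09, against 36.7% and -0.064 over all probe sets. The summed log2 level of the 7 was 26.5 to 27.6 at 2 h and 24.5 to 25.6 in non-wounded samples of numbers 2 to 4, and 28.5 and 27.0 in those numbered 1. At 30 min 7 of 7 were above 0, against 53.8% of all probe sets. It was 5 of 7 on the common scale, against 40.7%, and 6 of 7 in the samples numbered 2 to 4 alone, against 47.9%. None passed the test in either comparison, with or without the block, and Pdgfrb averaged 3.38 at 2 h and 3.51 in non-wounded samples. Their part in the ligand values was not tested.

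Endothelial and dendritic cell markers were less complete. Of 9 lymphatic endothelial markers only Ackr4 was measured, and Lyve1, Prox1 and Pdpn are not analysed here. Of 10 blood endothelial markers 5 were measured, and all 5 had a difference above 0 at 2 h, with a median of 0.16. On the common scale all 5 stayed above 0, with a median of 0.033, against 36.7% and -0.064 over all probe sets. The summed level of the 5 was 17.7 to 18.1 at 2 h and 16.5 to 17.3 in non-wounded samples of numbers 2 to 4. In those numbered 1 it was 19.3 and 18.4, and none of the 5 markers passed. For Langerhans cells 4 of 8 markers were measured. Their summed level was 30.80 to 31.59 at 2 h and 29.23 to 30.80 in non-wounded samples of numbers 2 to 4. In those numbered 1 it was 27.6 and 28.2. At 2 h 2 of the 4 were above 0, and 1 (Cd207) rose with the block (0.91, limma adjusted p = 0.0448) but did not pass without it in the 12 samples. Of the 5 keratinocyte markers 1, Areg, was above 0 at 2 h, and none passed without the block in the 12 samples. With the block Areg rose (1.39, limma adjusted p = 0.0297), as it did in the samples numbered 2 to 4 alone (1.64, adjusted p = 0.015), and Il20rb fell with the block (-1.03, adjusted p = 0.0448). No T cell, neutrophil or dermal dendritic cell and macrophage marker passed. At 2 h 4 of 7, 4 of 4 and 4 of 6 were above 0, against 54.5% of all probe sets. On the common scale it was 3 of 7, 3 of 4 and 2 of 6, against 36.7%. The summed level of the 4 neutrophil markers was 20.46 to 20.92 at 2 h and 19.67 to 20.44 in non-wounded samples of numbers 2 to 4. In those numbered 1 it was 19.3 and 17.8. RMA values have no zero, so no marker can be called absent. In a sample of mixed cells, more cells of a type and more RNA per cell cannot be told apart.

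No other measured gene of the CCL21 and CCR7 pathway passed the test. Of 24 listed genes 10 were measured, and none passed the limma test at 2 h or at 30 min, with or without the block. At 2 h 6 of the 10 were above 0, with a median of 0.041, against 54.5% and 0.025 over all probe sets. On the common scale it was 3 of 10 and -0.074, against 36.7% and -0.064. Without the block 0 of the 10 pathway genes had an unadjusted p under 0.05 at 2 h, and with it 2 had.

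Ackr4 encodes the atypical receptor that takes up CCL19 and CCL21 without signalling; it is named outside the rule on p, after its values were seen. Its values were 6.19, 7.80, 7.76 and 7.47 at 2 h, against 5.89, 7.51, 8.21 and 8.32 in the non-wounded samples. The pairs were split, with 0.30 and 0.30 for numbers 1 and 2 and -0.44 and -0.84 for numbers 3 and 4. Among the 2 h pairs, those with the larger Ccl21c differences were those in which Ackr4 was lower. At 30 min both genes were higher, by 1.22 (Ccl21c) and 0.94 (Ackr4) within number 1 and by 0.38 and 0.49 within number 2. Over the 12 samples r between Ackr4 and Ccl21c was -0.18 with the set means subtracted and -0.73 without that step. In the samples numbered 2 to 4 it was -0.69. The 2 h difference of means of Ackr4 was -0.17 ± 0.58 (SE, limma adjusted p = 0.998). The 4 h sample had the lowest Ackr4 value of all 12, 5.05, which was 0.84 below the non-wounded sample of its number, while its Ccl21c value was 0.87 above.

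St8sia4 encodes the polysialyltransferase that modifies CCR7 on dendritic cells, a change needed for the response to CCL21 in mice. Its values were 3.18, 3.82, 4.05 and 3.67 at 2 h, against 2.60, 3.50, 3.60 and 3.43 in the non-wounded samples. All 4 pairs were higher at 2 h, by 0.24 to 0.59, but the difference of 0.40 ± 0.27 (SE) had a limma adjusted p of 0.998, and 0.273 with the block. The lymphangiogenic factor Vegfd was at -0.76 ± 0.44 (SE), with an adjusted p of 0.998, and 0.206 with the block. Its values were 4.37, 5.78, 5.29 and 5.43 at 2 h, against 4.96, 5.68, 6.44 and 6.85 in the non-wounded samples. The homing receptors Cxcr5 and Cxcr3 were at -0.22 ± 0.24 and 0.15 ± 0.18 (each 0.998).

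At 30 min the pathway genes with the smallest p were the homeostatic chemokines Cxcl13 (0.33 ± 0.20, SE) and Cxcl12 (0.64 ± 0.40), each with a limma adjusted p of 0.735. Vegfd was at -0.56 ± 0.54 (0.756) and the polysialyltransferase St8sia2 at 0.24 ± 0.34 (0.805). Cxcl12 had values of 6.20 and 4.83 at 30 min, against 4.64 to 5.49 in the non-wounded samples, so that, as with the ligands, the sample numbered 1 was the high one. A second Cxcl12 probe set had 4.02 and 3.30 at 30 min, against 3.20 to 3.57.

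**Figure D4:**
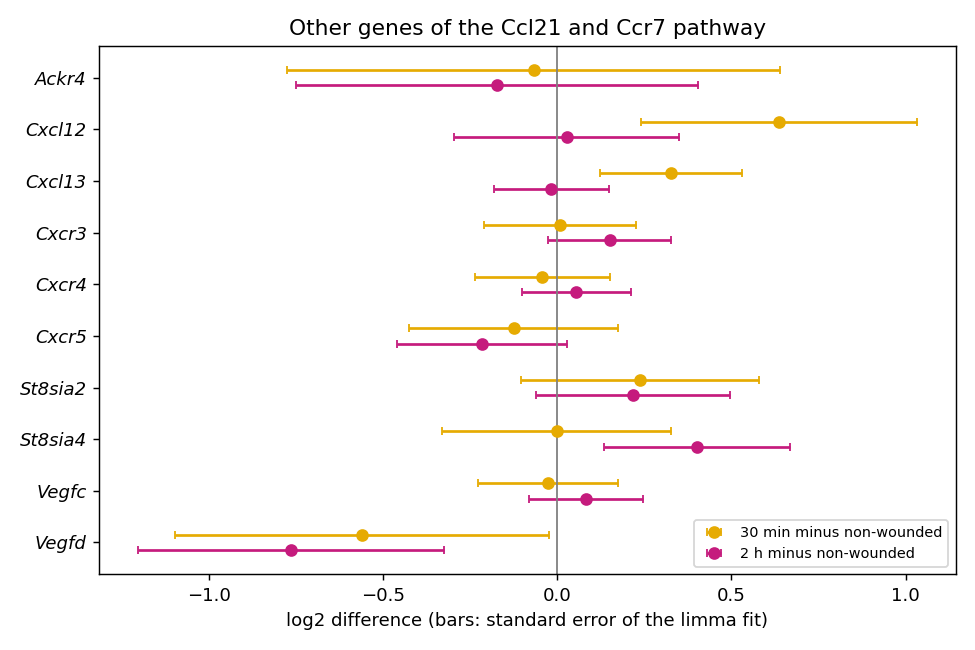
Log2 differences (x axis) of the 10 other measured genes of the pathway (y axis) at 30 min and at 2 h against non-wounded samples, with bars for the standard error of the limma fit. None passed the test, and the bars of most genes cross 0.

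The wider chemokine family gives the setting. Of the 15 other CC chemokine ligands measured, 13 were above 0 at 2 h with a median of 0.13, and 1 (Ccl20) rose, by 4.09 ± 0.65 (SE, limma adjusted p = 0.0412, or 0.0265 with the block), against 0.241% and 1.12% of all probe sets called higher. On the common scale the 13 became 9, with a median of 0.06, against 36.7% and a median of -0.064 over all probe sets. Of the 10 other CC chemokine receptors measured, 6 were above 0 at 2 h with a median of 0.030, and none passed. Among enzymes that build and sulfate heparan sulfate, the chain that holds CCL21, 27 were measured and 9 were above 0, the median was -0.063, and the test called none. At 30 min 10 of these 27 were above 0 with a median of -0.37, which was -0.052 in the samples numbered 2 to 4 alone. Of 14 genes of dendritic cell maturation and migration 5 were measured; none passed at 2 h without the block on the deposited scale of the 12 samples. The adhesion molecule Icam1 rose with the block (2.56, limma adjusted p = 0.0114), on the common scale (2.39, adjusted p = 0.0279) and in the samples numbered 2 to 4 alone (2.95, adjusted p = 0.00553). Cd83, a marker of mature dendritic cells, rose in the samples numbered 2 to 4 alone (1.97, adjusted p = 0.0104). Of all 1246 probe sets, 14 were called higher with the block and 4 on the common scale. In the samples numbered 2 to 4 alone 23 were.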

How the data were processed

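The authors deposited log2 values for 12 samples and 1246 probe sets in a single table, made with RMA per the submitters' processing notes; for the array name, batches and filters, the sources used here give nothing. Total RNA was extracted with Trizol and labelled with biotin, per the labels' protocols. Precision is limited by how many arrays there are.

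Probe sets were named by unversioned RefSeq accession (GRCm38.p6 gene table), which gave 963 probe sets a symbol, for 909 genes; a gene with several probe sets in a list is represented by the brightest. The main fit was limma 3.58.1 (R 4.3.3) on group means of all 12 samples, with no covariate, two-sided, adjusted by Benjamini-Hochberg across all 1246 probe sets, and called at an adjusted p under 0.05. The labels do not say whether replicates were separate mice, so p-values measure only the spread between these samples. Samples with the same number deviated together at 2 h and in non-wounded samples (r = 0.796, 0.449, 0.651 and 0.297 across probe sets for numbers 1 to 4), so the replicate number from the titles was also fitted as a block; among numbers 2 to 4 alone these were -0.150, 0.0727 and -0.319.

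The members, the lists and the rule for named genes were chosen with earlier results of these data known. The rule names the 3 genes, list members that passed, up to 4 pathway genes with the smallest p and the 5 genes most like each of the 3. Fits were tested on simulated data. Alternatives were another normalization, centring, scaling, a random block, a term for number 1, subsets of samples, a filter on dim probe sets, array weights and leaving out each sample. Figures were drawn with matplotlib 3.10.9.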

Additional observations from a re-analysis of the deposited data

How the results depend on the processing

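The 2 h minus non-wounded difference stayed above 0 under all 11 other settings for Ccl21a (0.88 to 1.03) and Ccl21c (0.73 to 0.96), and under 10 of 11 for Ccr7 (-0.022 to 0.11). The replicate block left it at 0.96, 0.81 and 0.089. With 1 sample left out the ranges were 0.74 to 1.15, 0.58 to 1.07 and 0.038 to 0.14. For 30 min minus non-wounded, leaving out 1 sample gave 0.73 to 1.90 for Ccl21a, 0.61 to 2.00 for Ccl21c and 0.067 to 0.50 for Ccr7, with 1.01, 0.99 and 0.19 under the replicate block; the cause was not tested. For 2 h minus 30 min those ranges were -0.94 to 0.23, -1.18 to 0.20 and -0.41 to 0.022, the samples numbered 2 to 4 alone gave 0.095, 0.056 and -0.029, and the block gave -0.05, -0.17 and -0.10.

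The number of probe sets called by limma at 2 h against non-wounded was 3. It was 17 with the replicate block, 15 with a random block, 7 after repeated quantile normalization and 13 with that and the block (chosen after seeing the data). It was 0 with samples centred on their medians (70 at an unadjusted p under 0.05), 20 with a term for number 1, 38 in samples numbered 2 to 4, 130 with array weights and 0 to 11 with 1 sample left out. The split of higher and lower calls was 14 and 3 with the block and 60 and 70 with array weights, of 1246 probe sets. Ccl21a and Ccl21c were both among the 60. Nothing is read from these 2 calls, since the genes were chosen by these same values. At 30 min leaving out 1 sample gave 0 to 74 calls, and the 74 came without the 30 min sample numbered 2. For 2 h against 30 min the main count was 0 (27 at an unadjusted p under 0.05), and it was 1 with a random block, 2 after quantile normalization, 1 with scaled samples, 1 with a term for number 1, 2 in samples numbered 2 to 4 and 0 to 9 with 1 sample left out. Each gene has 1 probe set, so another probe set could not be tried.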
